A study of Gallus gallus with 8 samples.

Results

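The circadian clock genes CLOCK, ARNTL, NPAS2, PER2, PER3, CRY1, CRY2, CSNK1D, CSNK1E and NFIL3 were followed across 8 Affymetrix chicken genome arrays. They were found by gene symbol in the array annotation, where all 10 had at least 1 probe set, a group of short probes against 1 transcript. Together they had 31 of the 38535 probe sets of the array. The RNA was labelled as coming from hen oocytes of the F1 stage taken 24 h before ovulation, from hens on standard layer feed at 20 °C whose day had 14 h of light and 10 h of darkness. DPF+ and DPF- were a pair of divergently selected lines with different fertility, while HG+ and HG- hens belonged to 1 line and also differed in fertility; the labels do not say which sign is the more fertile. Each group had 2 arrays, described as biological replicates, and the labels do not say whether each came from 1 bird or from a pool, so the p values measure the spread between these arrays. Neither the age of the hens nor the clock time of collection is given.

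The circadian clock is a feedback loop of transcription. CLOCK, or its relative NPAS2, pairs with ARNTL (also called BMAL1) and activates the PER and CRY genes, whose proteins enter the nucleus and repress that pair. The casein kinases CSNK1D and CSNK1E phosphorylate PER proteins and so set how fast they are degraded, and NFIL3 (also called E4BP4) represses clock output genes through D-box elements, among them PER2 in the chicken pineal gland. In laying hens the preovulatory surge of luteinizing hormone is restricted to part of the day, and clock genes are known to be expressed in the large follicles of bird ovaries.

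Values are log2 levels per probe set. A probe set was tested when 2 or more arrays had a log2 level of 4 or higher, and a level under 4 is not taken as above background. On each array 11500 to 12155 probe sets reached that level. The RNA labelled as oocyte held transcripts of granulosa marker genes: all 10 granulosa markers passed the filter, as did 6 of the 9 oocyte markers (among them ZAR1, matched through a synonym to a probe set now named ZAR1L), while the oocyte genes DDX4, GDF9 and BMP15 were under 4 on every array. Of the theca and stroma markers 2 of 10 passed, of the leukocyte markers 1 of 8 and of the endothelium markers 1 of 8. The levels below therefore belong to this mixture, in which fewer cells of a type and less RNA per cell cannot be told apart. DPF+ replicate 2 had the lowest summed log2 level of the 10 granulosa markers (85.70, against 89.05 to 92.01 on the other arrays). It also had the highest of the oocyte markers (40.30, against 32.58 to 38.79). The lowest oocyte sums were those of DPF- replicate 2 (32.58) and DPF+ replicate 1 (34.34). Over all tested probe sets DPF+ replicate 1 correlated with the other arrays at r = 0.920 to 0.977 and DPF+ replicate 2 at 0.927 to 0.961. The 2 DPF+ arrays correlated with each other at 0.927. DPF+ replicate 1 was closer to DPF- replicate 2 (0.977) and DPF+ replicate 2 to DPF- replicate 1 (0.961). Replicates differed most in DPF+, where the SD of the difference between the replicates over all tested probe sets was 0.746, against 0.456 in DPF-, 0.276 in HG+ and 0.282 in HG-.

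Of the 31 clock probe sets 14 passed the filter and 16 stayed under 4 on all 8 arrays. The remaining probe set, of CSNK1D, reached 4.02 on DPF- replicate 2 alone. The 14 represented 8 genes. PER2, whose protein forms the repressor with the CRY proteins, had 6 probe sets and none of them exceeded 3.79 on any array. NPAS2 had 2 probe sets, which did not exceed 2.44. Neither gene was detected above background here, which is a statement about these probe sets and not about the absence of the transcripts. The other genes had 1 to 3 tested probe sets each, and 3 of the 4 probe sets of PER3 and 1 of the 2 of CSNK1E were under 4 throughout. Since probes differ in how well they bind, levels of different genes are not ranked against each other.

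**Figure D1:**
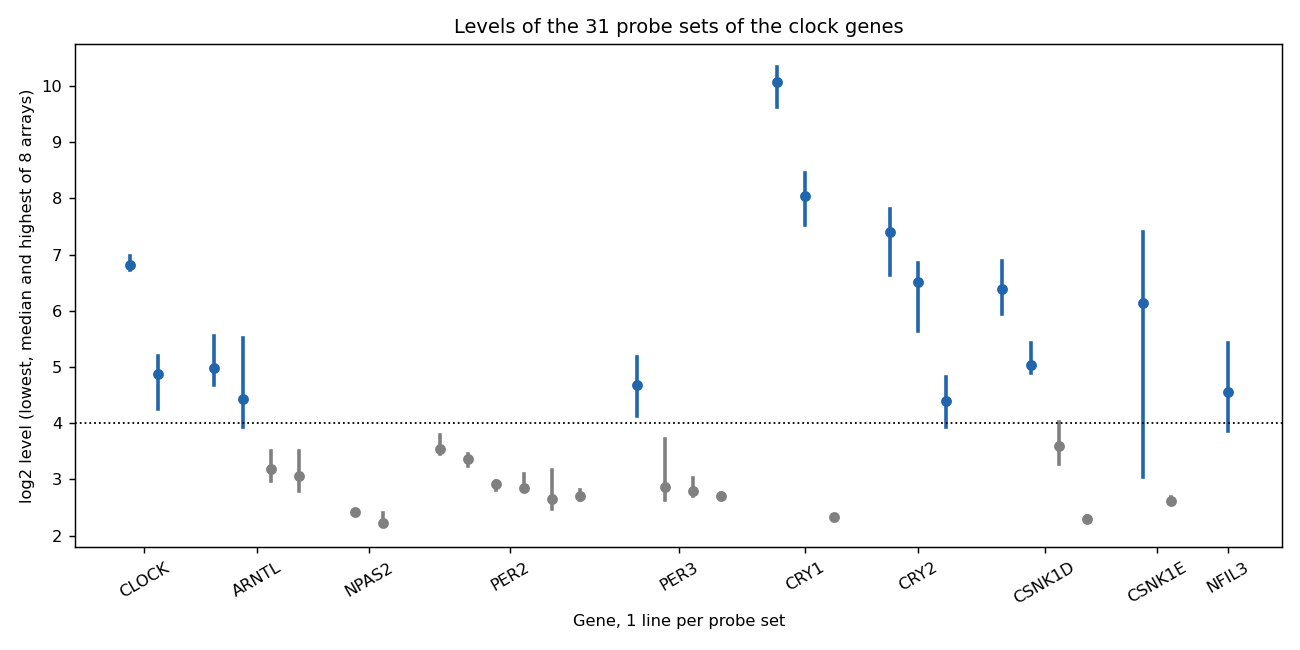
Log2 levels of the 31 probe sets of the 10 clock genes, 1 vertical line per probe set from the lowest to the highest of the 8 arrays with the median as a point. Blue marks the 14 tested probe sets, grey the others, and the dotted line the level of 4; all probe sets of NPAS2 and PER2 lie under the line, and the tested CSNK1E probe set has the longest line.

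The activators CLOCK and ARNTL were measured in all groups. For a gene with several probe sets the one with the highest mean is described first. CLOCK was nearly flat, with log2 levels of 6.90 and 6.97 in DPF+, 6.82 and 6.82 in DPF-, 6.82 and 6.72 in HG+ and 6.76 and 6.72 in HG-. All 8 arrays lay within 0.25 of each other, and both DPF+ arrays were above both DPF- arrays by a small margin. The log2 change of DPF+ against DPF- was 0.12 with a 95% confidence interval of -0.30 to 0.53, and that of HG+ against HG- was 0.03 (-0.39 to 0.45). The second CLOCK probe set ran the other way between the DPF groups, at 4.68 and 4.25 in DPF+ against 4.90 and 4.79 in DPF-, and the same way between the HG groups, at 5.19 and 5.12 in HG+ against 5.00 and 4.86 in HG-. Over the 8 arrays the 2 CLOCK probe sets correlated at r = -0.79, so no direction is given for the gene.

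ARNTL had log2 levels of 4.86 and 4.68 in DPF+, 4.81 and 5.55 in DPF-, 5.24 and 4.95 in HG+ and 5.03 and 5.20 in HG-. The groups overlapped, and the spread of the DPF- replicates was as wide as the difference between the DPF groups. A second ARNTL probe set ranged from 3.93 on DPF- replicate 1 to 5.51 on DPF+ replicate 1 and put DPF+ above DPF- (4.94 ± 0.81 against 4.55 ± 0.88, SD, n = 2), where the first put it below (4.77 ± 0.13 against 5.18 ± 0.52). The other 2 ARNTL probe sets were under 4 on all arrays.

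Of the repressors, CRY1 was measured by 2 probe sets well above background. The first had log2 levels of 9.96 and 10.34 in DPF+, 10.04 and 9.62 in DPF-, 10.05 and 10.17 in HG+ and 10.10 and 10.14 in HG-. The 4 HG arrays lay between 10.05 and 10.17, and the DPF arrays spread around them. The second had 7.52 and 7.93 in DPF+, 7.88 and 7.63 in DPF-, 8.17 and 8.39 in HG+ and 8.14 and 8.46 in HG-, so that every DPF array was below every HG array.

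CRY2, the other cryptochrome of the loop, had its highest levels in the DPF lines. Its first probe set had log2 levels of 7.78 and 7.58 in DPF+, 7.50 and 7.82 in DPF-, 7.31 and 7.17 in HG+ and 6.64 and 7.27 in HG-. DPF+ and DPF- had nearly the same mean (7.68 and 7.66), and every DPF array was above every HG array. A second probe set, at 6.61 to 6.85 in DPF and 5.65 to 6.42 in HG, followed it (r = 0.96). The third followed it less closely (r = 0.29) and ranged from 3.94 to 4.82. Its log2 difference of DPF and HG was -0.09 (limma adjusted p = 0.803).

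PER3, the only period gene with a tested probe set, had log2 levels of 4.13 and 5.18 in DPF+, 4.62 and 4.56 in DPF-, 4.67 and 4.95 in HG+ and 4.83 and 4.70 in HG-. The lowest and the highest value of the 8 arrays were both in DPF+. They fell on the arrays with the second lowest (34.34) and the highest (40.30) summed level of the oocyte markers among the 8, and the part of the oocyte share in the PER3 levels was not tested.

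The kinases that mark PER proteins behaved differently from each other. CSNK1D had log2 levels of 6.88 and 6.57 in DPF+, 6.54 and 6.64 in DPF-, 5.95 and 6.01 in HG+ and 6.25 and 6.01 in HG-. The lowest DPF array was above the highest HG array, and within each source the fertility groups overlapped. A second tested CSNK1D probe set showed no such order, at 4.90 to 5.33 on the DPF arrays and 5.02 to 5.43 on the HG arrays.

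CSNK1E was the most variable of the clock genes. Its tested probe set had log2 levels of 5.2 and 5.94 in DPF+, 3.05 and 3.69 in DPF-, 6.35 and 6.49 in HG+ and 7.41 and 6.89 in HG-. The 4 groups did not overlap: both DPF- arrays lay under 4, followed by DPF+, HG+ and HG-. With values under 4 set to 4 the 8 arrays spanned at least 3.41, against a span of 0.25 for CLOCK. Neighbours in that order were DPF+ at 5.57 ± 0.52 and HG+ at 6.42 ± 0.10 (SD, n = 2), then HG- at 7.15 ± 0.37. The name of this probe set ends in s_at, which marks probes shared by more than 1 transcript sequence. The tested PER3 probe set, the first CRY2 probe set and the second ARNTL probe set have the same ending. The other CSNK1E probe set was at 2.58 to 2.69 on all arrays.

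NFIL3, the D-box repressor, had 1 probe set, with log2 levels of 4.64 and 5.42 in DPF+, 4.46 and 3.87 in DPF-, 4.52 and 4.58 in HG+ and 4.55 and 4.68 in HG-. Both DPF+ arrays were above both DPF- arrays, and the 4 HG arrays lay between 4.52 and 4.68, inside the range of the DPF arrays.

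**Figure D2:**
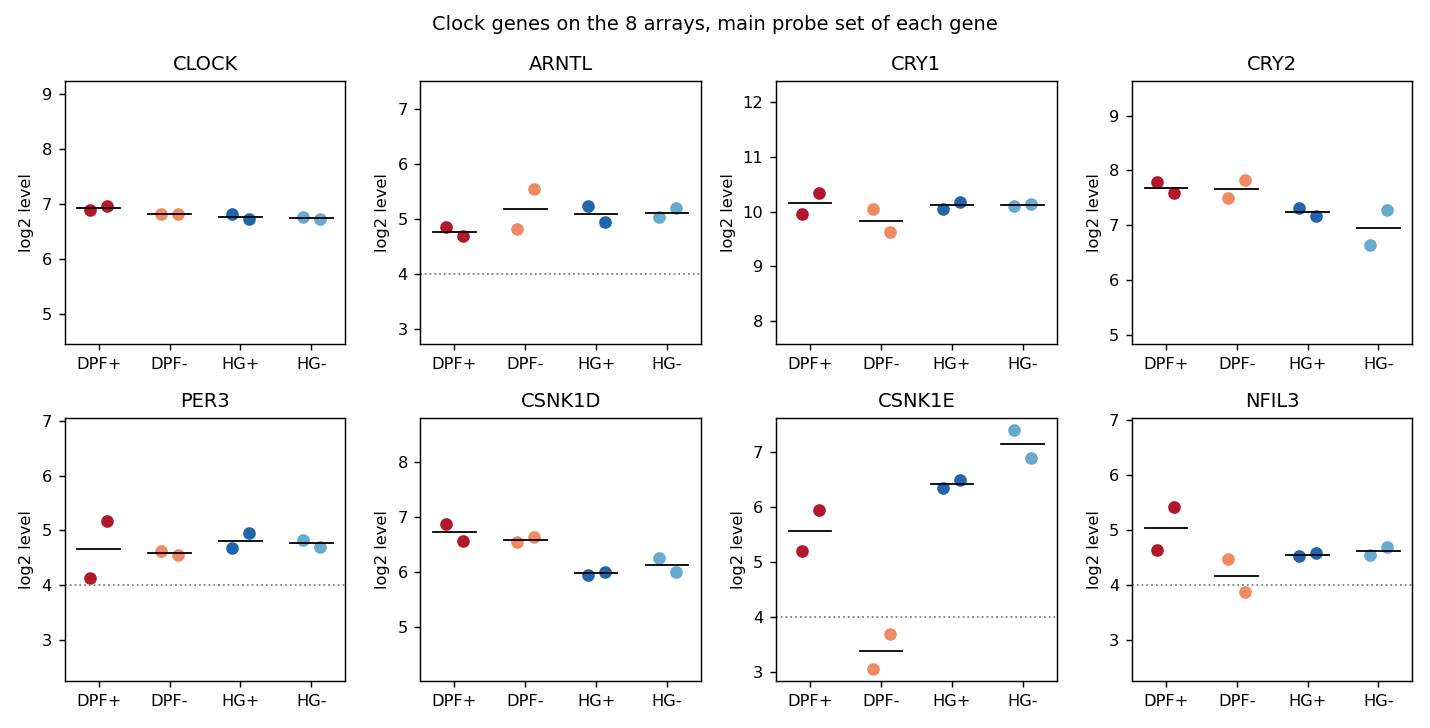
Log2 levels of the 8 clock genes with a tested probe set, 1 panel per gene and 1 point per array, with a bar at the mean of each group of 2; every panel spans the same range of log2 units and the dotted line marks a level of 4. CSNK1E runs from 3.05 in DPF- to 7.41 in HG-, while CLOCK stays between 6.72 and 6.97.

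The first comparison, DPF+ against DPF-, concerns differences between the divergent lines. Of the 8 clock genes, 0 passed the test (limma, Benjamini-Hochberg adjusted p under 0.05 over all 12725 probe sets), where 0 of all probe sets passed, and percent called was 0. An unadjusted p under 0.05 was found for 2 of the 14 clock probe sets, those of CSNK1E and NFIL3, and for 6.14% of all tested probe sets. The median change over the 8 genes was 0.13, beside 0.02 over all tested probe sets. In 6 of the 14 the groups did not overlap, where this held for 23.3% of all tested probe sets.

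CSNK1E had the largest difference. Its mean was 5.57 ± 0.52 in DPF+ and 3.37 ± 0.45 in DPF- (SD, n = 2), and since both DPF- arrays were not above background the difference is given as a bound of 1.57 or more on the log2 scale, counted from 4. The fitted log2 change of 2.20 ± 0.34 (SE) had a limma adjusted p = 0.196 and, by its unadjusted p of 0.00022, stood in place 13 of the 12725 probe sets. Leaving out DPF+ replicate 1 gave 2.57. There DPF+ is replicate 2 alone, the array with the lowest granulosa and the highest oocyte sum, and is assumed to vary like the other groups. Leaving out any other array gave 1.83 to 2.52 without a call. The DPF- arrays had summed oocyte marker levels of 37.49 and 32.58 and the DPF+ arrays of 34.34 and 40.30, and their part in the difference was not tested. NFIL3 averaged 5.03 ± 0.55 in DPF+ and 4.17 ± 0.42 in DPF-, where replicate 2 was under 4 (3.87). The fitted log2 change was 0.87 ± 0.31 (SE, limma adjusted p = 0.725), or 0.80 with values under 4 set to 4. The fitted change was 0.48 without DPF+ replicate 2, 0.57 without DPF- replicate 2 and 1.16 without DPF- replicate 1. It was 1.26 without DPF+ replicate 1, where DPF+ is again replicate 2 alone.

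For the other clock genes the main probe sets gave log2 changes from -0.41 for ARNTL (95% confidence interval -1.06 to 0.24) to 0.32 for CRY1 (-0.17 to 0.81). CRY2 was at 0.02 (-0.58 to 0.62), PER3 at 0.07 (-0.71 to 0.84) and CSNK1D at 0.14 (-0.35 to 0.62). The exact permutation test of 2 against 2 arrays has 6 splits and cannot reach 5% (smallest p 0.333), so it was not used here.

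The second comparison, HG+ against HG-, concerns fertility in 1 line. Here too the fit shares 1 variance per probe set over the 4 groups. The SE, intervals and p values of this comparison therefore include the wider spread of the DPF replicates and do not measure the HG spread alone. Again 0 of the 8 clock genes and 0 of the 12725 probe sets passed in limma (percent called 0). At an unadjusted p under 0.05 there were 0 of the 14 clock probe sets, against 0.354% of all. The groups did not overlap in 3 of the 14, beside 25.1% of all tested probe sets. CSNK1E again had the largest difference among the clock genes, now in the other direction: 6.42 ± 0.10 in HG+ and 7.15 ± 0.37 in HG- (SD, n = 2), a log2 change of -0.73 ± 0.34 (SE, limma adjusted p = 1, 95% confidence interval -1.51 to 0.05). It was -0.47 without HG- replicate 1.

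The changes of the other 7 genes lay between -0.15 for CSNK1D (95% confidence interval -0.63 to 0.33) and 0.29 for CRY2 (-0.32 to 0.89). The CRY2 value rested on HG- replicate 1, the array with the lowest CRY2 level of all 8, and was -0.03 without it. CRY1 was at -0.01 (-0.50 to 0.48), ARNTL at -0.02 (-0.67 to 0.63), PER3 at 0.05 (-0.73 to 0.82) and NFIL3 at -0.07 (-0.79 to 0.66). The median change over the 8 genes was -0.02, and over all tested probe sets it was also -0.02.

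The 2 fertility contrasts use different arrays, and their difference was tested in the same fit. For CSNK1E it was 2.93 ± 0.48 (log2, SE), or 2.30 or more with DPF- counted from 4. The unadjusted p of 0.000326 was the fourth smallest of all probe sets, and the limma adjusted p was 0.988. Of all 12725 probe sets 0 passed this test (percent called 0), and 364 (2.86%) had an unadjusted p under 0.05, 1 of them among the 14 clock probe sets. CSNK1E was thus higher in DPF+ than in DPF- and lower in HG+ than in HG-, in each case without overlap. Such opposite separation also occurred in 3.14% of all tested probe sets and in 2 of the 14 clock probe sets, the other being the second CLOCK probe set.

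**Figure D3:**
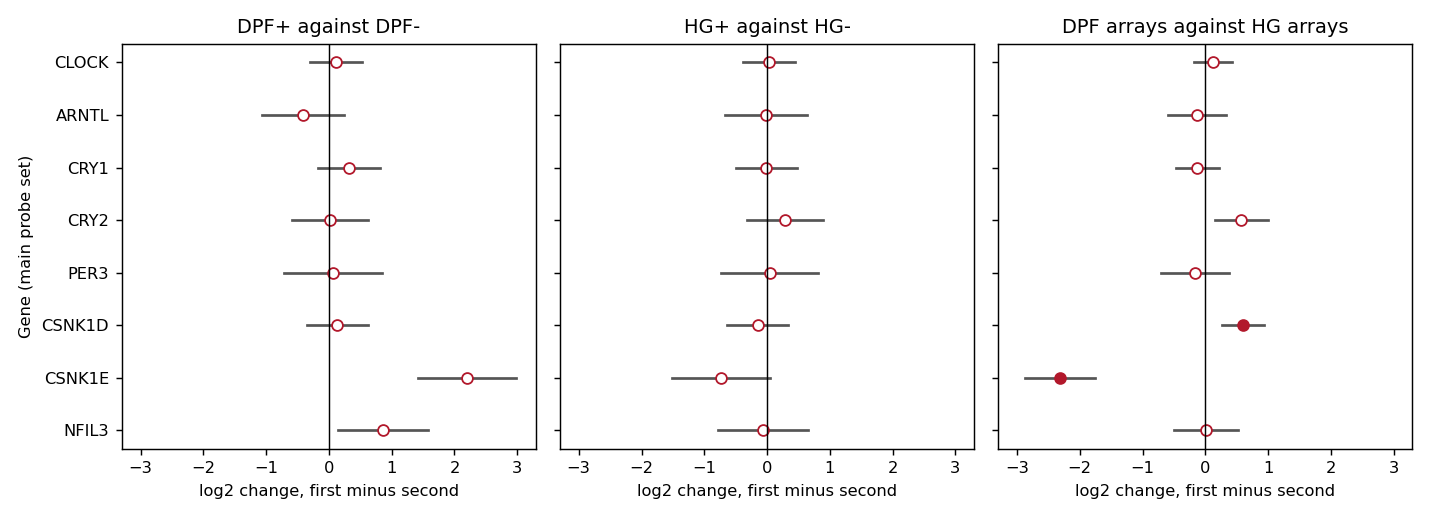
Fitted log2 changes of the 8 clock genes (main probe set) in 3 contrasts, the first group named minus the second, with 95% confidence intervals from limma; filled points have an adjusted p under 0.05 over all 12725 probe sets. Filled points appear for CSNK1E and CSNK1D in the comparison of the DPF with the HG arrays, and the CSNK1E point lies at 2.20, -0.73 and -2.32 in the 3 panels.

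The DPF and the HG arrays differ in the source of the hens, and possibly in handling that the labels do not describe. The 3' minus 5' difference of the control transcripts actin, EF1a and GAPDH, a measure of RNA length, was 1.33 to 1.86 on the DPF arrays and 1.04 to 1.17 on the HG arrays. Source and such differences cannot be told apart. The summed level of the theca and stroma markers was 30.37 to 32.56 on the DPF arrays and 33.36 to 34.40 on the HG arrays. That order came from 1 gene, the collagen COL1A2, at 4.08 to 5.97 and 8.01 to 8.93. Its log2 difference of DPF and HG was -3.77 (limma adjusted p = 0.00133). PDGFRB, the only other of these markers that passed the filter, was higher in DPF by 0.58 (log2, limma adjusted p = 0.0989). The other 8 of the 10 were under 4 on every array. CDH5, the only endothelium marker that passed the filter, had a fitted log2 difference of -1.41 (limma adjusted p = 0.011). It was at 2.55 to 2.75 on the DPF arrays, all under 4, and at 3.49 to 4.42 on the HG arrays. CDH5 thus passed the filter through HG arrays alone, and most of its fitted difference lies under 4. Such levels are not taken as above background. Neither the size nor the p value is therefore read as a difference between the sources. Of the 10 granulosa markers 1 was called, GATA4, with -0.635 (limma adjusted p = 0.0425), and 5 of the 10 had positive differences. The part of RNA length and of these markers in the values below was not tested. In this contrast 1588 of the 12725 probe sets passed 5% in limma, a percent called of 12.5, with 3.48% higher and 9% lower in the DPF arrays. The contrast shares its arrays with both fertility contrasts.

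Of the 14 clock probe sets 2 passed, or 14.3%, which is near that background. An unadjusted p under 0.05 was found for 6 of the 14, beside 29.7% of all tested probe sets. The tested CSNK1E probe set was lower and the first CSNK1D probe set higher in the DPF arrays. CSNK1E averaged 4.47 ± 1.33 in DPF and 6.79 ± 0.48 in HG (SD, n = 4), a log2 difference of -2.32 ± 0.24 (SE, limma adjusted p = 0.00303), or -2.0 with values under 4 set to 4. It kept an adjusted p between 0.00133 and 0.0247 in all 19 alternatives, including each array left out in turn. With the mean of both CSNK1E probe sets the difference of DPF and HG was -1.14, and the change of DPF+ against DPF- was 1.08. The other probe set was under 4 on all arrays and nearly flat, so this mean is bound to give smaller changes. At the tested probe set the size differed by fertility group. DPF+ minus HG+ was -0.85 on the log2 scale, and DPF- minus HG- was -3.15 with DPF- counted from 4. Both DPF- arrays were not above background. The 3' minus 5' difference was 1.82 and 1.86 in DPF+ and 1.54 and 1.33 in DPF-, and its part in the CSNK1E values was not tested.

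The first CSNK1D probe set averaged 6.66 ± 0.15 in DPF and 6.06 ± 0.13 in HG (SD, n = 4), a log2 difference of 0.60 ± 0.15 (SE, limma adjusted p = 0.0376). This call was held in 2 of the 8 fits with 1 array left out, with adjusted p values from 0.00748 to 0.171 and differences from 0.53 to 0.68. It was lost without either DPF- array (0.0764 without replicate 1, 0.119 without replicate 2), without either HG+ array (0.149 and 0.153) and without either HG- array (0.103 and 0.171). The second tested CSNK1D probe set had a difference of -0.15 (limma adjusted p = 0.52). Over the 8 arrays the 2 correlated at r = -0.32, so no direction is given for the gene. With the mean of all 4 CSNK1D probe sets, of which 2 were tested, the difference was 0.20 (limma adjusted p = 0.369).

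The cryptochromes did not pass over all probe sets and pointed in different directions. The first CRY2 probe set was higher in DPF by 0.57 ± 0.18 (log2, SE, limma adjusted p = 0.0806) and the second CRY1 probe set was lower by a log2 difference of -0.55 ± 0.16 (limma adjusted p = 0.0674). The main CRY1 probe set had -0.13 (adjusted p = 0.619). Both of the first 2 had limma adjusted p values under 0.05 in a model with 2 groups in place of 4, which called 2228 of the 12725 probe sets. Without DPF+ replicate 2 their differences were 0.62 for CRY2 and -0.65 for CRY1. The main probe sets of CLOCK, ARNTL, PER3 and NFIL3 had differences from -0.17 to 0.12, with limma adjusted p values of 0.563 or more. Single arrays changed some of these: PER3 was at -0.43 without DPF+ replicate 2. The second CLOCK probe set went from -0.39 (limma adjusted p = 0.138) to -0.50 without DPF+ replicate 1. NFIL3 had nearly equal means (4.60 and 4.58), but its SD was 0.64 in DPF and 0.07 in HG.

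The arrays of DPF and HG did not overlap in 5 of the 14 clock probe sets (CSNK1E, CSNK1D, 2 of CRY2 and 1 of CRY1), or 35.7%, beside 24.8% of all tested probe sets. For each of these 5 the exact two-sided permutation p over the 70 splits of 4 against 4 arrays was 0.0286, the smallest it can give. It was 0.080 after Benjamini-Hochberg adjustment over the 14. Arrays without overlap always give this p, so it adds nothing to the lack of overlap. The splits also treat the 4 arrays of a source as alike, although they come from different fertility groups.

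Correlations over the 8 arrays were computed for the 28 pairs of the 8 genes. Of these, 1 pair passed after adjustment over the 28, by rank: PER3 with CRY1 (Spearman rho = 0.95, exact permutation p = 0.00114, adjusted 0.0319). Its Pearson correlation did not pass (r = 0.64, exact permutation p = 0.0889, adjusted 0.350) and was 0.70 without DPF+ replicate 1 and 2, the arrays with the most extreme PER3 levels. The 8 arrays stood in the same order by CRY1 level as by the summed level of the oocyte markers, and nearly so by PER3 level. The part of the oocyte share in this pair was not tested. The permutations moved arrays freely across the 4 groups, so differences between groups and sources enter the p values of all these correlations. With 4 arrays each, the DPF and the HG arrays were too few for a value within either source. The largest Pearson correlation was that of CRY1 with NFIL3 (r = 0.90, exact permutation p = 0.0225, and Spearman rho = 0.71, exact permutation p = 0.0576). Adjusted over the 28 pairs these p values were 0.275 and 0.323. Leaving out the 2 arrays with the most extreme CRY1 levels, DPF+ replicate 2 and DPF- replicate 2, gave r = 0.15. ARNTL with NFIL3 (r = -0.78, adjusted exact permutation p = 0.275) became 0.28 without the same 2 arrays. Leaving out the extremes of a gene narrows its range, which by itself tends to weaken r. These values therefore do not decide whether the relations hold on the other arrays. The arrays left out were the extremes of the first gene named, so the checks of different pairs are not alike. On DPF+ replicate 2 CRY1 and NFIL3 were at their highest and ARNTL at its lowest level of the 8 arrays. The reverse was the case on DPF- replicate 2, with NFIL3 at 3.87, under 4. These arrays also had the highest (40.30) and the lowest (32.58) summed level of the oocyte markers, whose part in these relations was not tested.

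Genes around the core loop were examined in 4 further lists. Of 16 loop partners 10 had a probe set and 5 were tested: ARNTL2, a relative of ARNTL; NR1D2 and RORA, nuclear receptors that repress and activate ARNTL; HLF, a D-box activator; and TIPIN, the partner of the replication fork protein TIMELESS. In each fertility contrast 0 of the 5 passed, with the smallest p for ARNTL2 at -0.40 and HLF at 0.33 between the DPF groups and for RORA at -0.29 and HLF at 0.16 between the HG groups. Between DPF and HG, where 12.5% of all tested probe sets passed, 1 of 5 passed: TIPIN fell by 1.47 on the log2 scale in DPF (SE 0.21, limma adjusted p = 0.00824), from 5.94, 6.22, 6.14 and 6.0 on the HG arrays to 4.20, 4.94, 4.86 and 4.43 on the DPF arrays. Without HG- replicate 2 its adjusted p was 0.0531. ARNTL2 was at 0.39 (limma adjusted p = 0.137), and at 0.46 without DPF+ replicate 2. RORA was at 0.20 and HLF at 0.18, and the median of the 5 was 0.18, beside -0.08 over all tested probe sets.

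Of 26 modifiers of clock proteins (mainly kinases, phosphatases and ubiquitin ligase subunits, with SIRT1 and USP2 beside them) 20 had a probe set and 16 were tested. In each fertility contrast 0 of 16 passed. The smallest p values belonged to the casein kinase 2 subunit CSNK2A2 (0.33) and the phosphatase subunit PPP1CB (-0.18) between the DPF groups, and to CSNK2A2 (-0.48) and CSNK2A1 (-0.13) between the HG groups. Between DPF and HG 1 of 16 passed, beside 12.5% of all tested probe sets: PPP1CB, which rose in DPF by 0.51 (SE 0.10, limma adjusted p = 0.0206), with 11.34, 11.34, 11.54 and 11.5 on the DPF arrays and 10.87 to 10.96 on the HG arrays. Its adjusted p ran from 0.00639 to 0.115 with 1 array left out and was under 0.05 in 2 of the 8 such fits, those without a DPF+ array. The ubiquitin ligase scaffold CUL1 (-0.62), the kinase GSK3A (0.47) and FBXL21, an F-box protein that binds cryptochromes in mammals (0.55), did not pass. Their limma adjusted p values were 0.0603, 0.0853 and 0.124. Without DPF+ replicate 2 these 3 genes were at -0.74, 0.53 and 0.705. The median of the 16 was -0.09. CSNK1A1, another casein kinase 1, was at 8.72 to 9.19 on all 8 arrays.

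Of the 13 genes of light and melatonin input 12 had a probe set and 2 were tested, the transcription factors CREM and ATF4. Their largest change was 0.51 for CREM between the DPF groups (limma adjusted p = 0.862). Between the HG groups ATF4 was at -0.09 and CREM at -0.02, and between DPF and HG they were at 0.03 and 0.01.

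Of 16 genes described as clock outputs, or as follicle genes linked to the clock in bird or mammal ovaries, all 16 had a probe set and 12 were tested. Among the 12, NAMPT was matched through a synonym to a probe set now named NAMPTP1. None of the 12 passed in the 3 contrasts in limma. At an unadjusted p under 0.05 there were 0 of 12 in each fertility contrast (beside 6.14% of all tested probe sets in DPF and 0.354% in HG) and 3 of 12 between DPF and HG, beside 29.7%. The luteinizing hormone receptor LHCGR (-0.55) and the angiogenic factor VEGFA (-0.81) had the smallest p between the DPF groups, and KLF10 (-0.27) and MYC (0.21), transcription factors, between the HG groups. Between DPF and HG the cell cycle kinase WEE1 was at 0.71 (limma adjusted p = 0.0704). STAR, the cholesterol carrier of steroid synthesis and a clock target in quail granulosa cells, was at -1.04 (limma adjusted p = 0.0781). STAR was at 9.01, 7.91, 8.39 and 9.07 on the DPF arrays and 10.08, 9.09, 9.43 and 9.95 on the HG arrays, with the lowest HG array just above the highest DPF array. In this contrast WEE1 was at 0.90 without DPF+ replicate 2 and STAR at -1.32 without DPF+ replicate 1. LHCGR, which is also 1 of the 10 granulosa markers, was at -1.03 between the DPF groups without DPF+ replicate 1 (adjusted p = 0.0322), a value that rests on DPF+ replicate 2 alone (10.53, against 11.44 and 11.68 in DPF-), the array with the lowest granulosa sum.

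**Figure D4:**
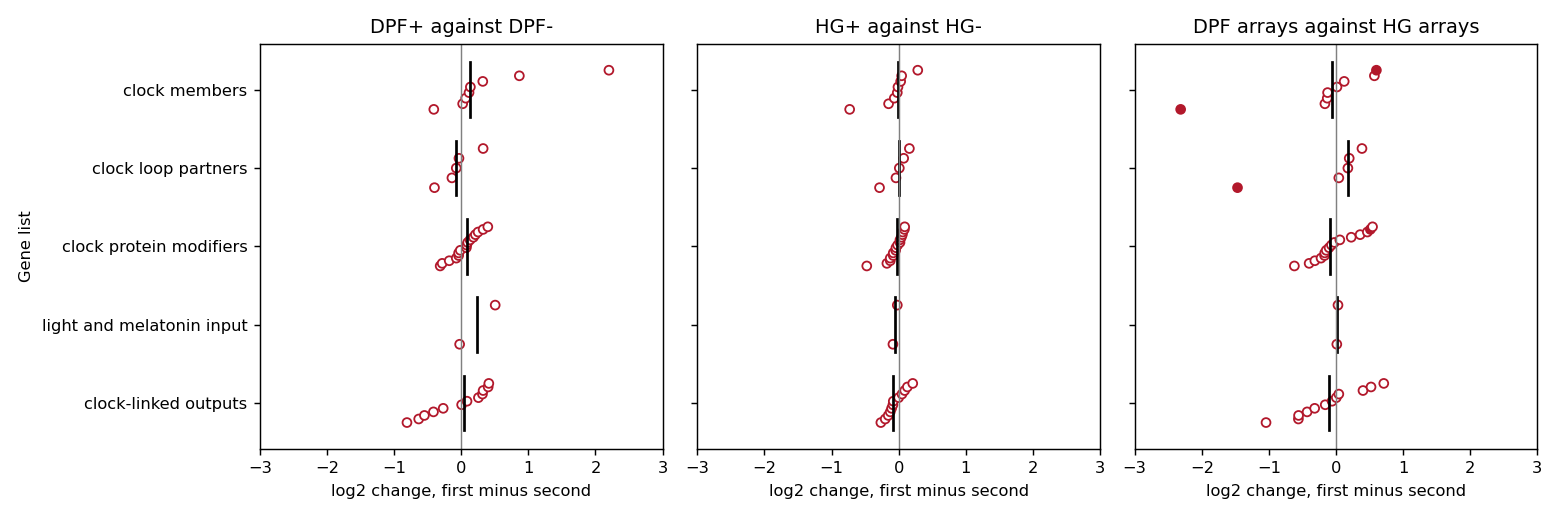
Fitted log2 changes of the tested genes of the clock members and of 4 further lists in 3 contrasts, 1 point per gene, with a black bar at the median of each list; filled points have an adjusted p under 0.05. No point is filled in the 2 fertility contrasts, and the medians of the lists lie between -0.11 and 0.24.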

How the data were processed

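Each deposited value is the log2 level of a probe set. Per the submitters' processing notes the authors used GCRMA, which subtracts background, normalizes arrays to each other and summarizes the probes of a set; the notes name no version and do not say whether the 8 arrays were handled in 1 run. Of 38535 probe sets, 96 controls and 8 with a blank value (6 blank on the DPF arrays, 2 on the HG arrays) were left out. Gene names came from the array annotation. A total of 12725 probe sets reached a log2 value of 4 on at least 2 arrays. The 4 group means were fitted on all 8 arrays with limma 3.58.1 in R 4.3.3 (eBayes with an intensity trend, two-sided, 4 residual degrees of freedom), with Benjamini-Hochberg adjustment over all 12725. The fit was tested on simulated data with the same spread in all groups, unlike these arrays, whose replicates differed most in DPF+. That test therefore does not cover unequal spread. The number of arrays limits the precision. Same-numbered replicates were not paired: the correlation of their deviations ran from -0.52 to 0.51 between groups. The members and lists were chosen with earlier results of these data known. The text names all members. Of each of the 4 further lists it gives the changes, per contrast, of up to 4 genes with the smallest p where any passed and up to 2 otherwise. The levels of CSNK1A1, the markers and the genes under other observations were given outside this rule. Confidence intervals are at 95% and unadjusted. Alternatives were other filters, scalings and variance models, fewer arrays, a replicate block, the RNA amount (8.8 to 13.3 µg), weights per array, a model with 2 groups and averaging the probe sets of each gene.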

Additional observations from a re-analysis of the deposited data

Results flagged for a closer look

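The change of CSNK1E with fertility had opposite signs in the 2 sources: fitted log2 changes were 2.20 in DPF and -0.73 in HG, a fitted difference of 2.93 (limma adjusted p = 0.988), with the arrays of each pair of groups separated in opposite directions. Since both DPF- arrays were under 4, the change in DPF counted from 4 is 1.57 or more and the difference 2.30 or more. The second CLOCK probe set was also separated in opposite directions, lower in DPF+ and higher in HG+, with a difference of -0.605 (limma adjusted p = 0.999). The second CRY2 probe set had an array far from the other 3 of its source in each source. It was at 6.85 on DPF+ replicate 1, where the other DPF arrays had 6.61 to 6.64, and at 5.65 on HG- replicate 1, where the other HG arrays had 6.32 to 6.42. These were 2 of 28 sets of 4 arrays examined, and chance alone marks about 1 in 20.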

How the results depend on the processing

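Counts of called probe sets moved with the settings. For DPF+ against DPF- the count of 0 became 10 without a filter and ran from 0 to 1070 with 1 array left out (1070 without DPF+ replicate 1, 2 without DPF+ replicate 2). With same-numbered arrays anticorrelated (r = -0.52 in DPF, -0.19 in HG), crossed pairs, an alternative added after the data were seen, gave 5 calls between the DPF groups and 0 between the HG groups. For HG+ against HG- and for the difference between the contrasts the count was 1 each without a filter and 0 with any array left out. For DPF against HG the 1588 calls became 1045 without a filter, 549 with a filter at 6, 870 with the replicate block, 2228 with 2 groups, and 174 to 4846 with 1 array left out (2624 and 4846 without DPF+ replicate 1 and 2, 1019 and 518 without the DPF-, 346 and 250 without the HG+ and 311 and 174 without the HG- replicates). The replicate block gave 0 calls in the other 3 contrasts; under it CSNK1E kept its call (0.0096), and CSNK1D (0.0729) and PPP1CB (0.0535) did not. CSNK1D also lost its call without a filter (0.0713), with a filter at 6 (0.0514) and with array weights (0.0575). The 2-group model added calls for CUL1, GSK3A, WEE1 and STAR, and the RNA amount for CUL1 (0.0468) and STAR (0.0299). CSNK1E had an adjusted p of 1 between the DPF groups with only the 4 DPF arrays.

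Directions that turned were those of small changes without a call, and the cause was not tested. Between DPF+ and DPF-, CRY2 became -0.005 with median centring, -0.042 with quantile normalization and -0.15 with the mean of its probe sets (-0.14 to 0.18 with 1 array left out); CLOCK became -0.13 with the mean of its probe sets; PER3 became -0.14 with the RNA amount (-0.46 to 0.59 with 1 left out), CSNK1D ran from -0.02 to 0.29 and HLF from -0.14 to 0.79 with 1 left out. Between HG+ and HG-, CRY1 became 0.005 with median centring, 0.0078 with quantile normalization and 0.22 with the RNA amount (-0.07 to 0.05 with 1 left out). With the RNA amount NFIL3 became 0.28, HLF -0.12 and CREM 0.19. With 1 array left out CLOCK ran from -0.02 to 0.08, ARNTL from -0.17 to 0.13, PER3 from -0.10 to 0.19, CRY2 from -0.03 to 0.60, HLF from -0.045 to 0.365, KLF10 from -0.625 to 0.095, ATF4 from -0.25 to 0.08 and CREM from -0.14 to 0.10. Between DPF and HG, the mean of all probe sets turned CLOCK to -0.13 and ARNTL to 0.20, and quantile normalization the third CRY2 probe set to 0.063 (-0.22 to 0.045 with 1 left out). With 1 left out ARNTL ran from -0.315 to 0.055, PER3 from -0.43 to 0.10, NFIL3 from -0.18 to 0.21, HLF from -0.055 to 0.41, ATF4 from -0.0525 to 0.1125 and CREM from -0.1175 to 0.1425.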

Other observations

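The following values were chosen after the CSNK1E levels were seen. The nearest tested genes beside CSNK1E in the chicken reference annotation (assembly bGalGal1.mat.broiler.GRCg7b), 2 on each side, were CBY1 and DDX17, and TMEM184B and MAFF. CBY1, an inhibitor of beta-catenin, fell by 1.22 on the log2 scale in DPF against HG (limma adjusted p = 0.0128), with 5.95 to 6.85 on the DPF arrays and 7.14 to 7.77 on the HG arrays, and its change between DPF+ and DPF- was -0.38 (adjusted p = 0.919). The RNA helicase DDX17 was at 0.03 between DPF and HG, the membrane protein TMEM184B at 0.47 (adjusted p = 0.0634) and the transcription factor MAFF at -0.08. Between DPF+ and DPF- these 3 had changes of -0.30, 0.06 and 0.30, where CSNK1E had 1.57 or more, counted from 4.

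The genes whose levels ran most like those of a clock gene over the 8 arrays are given as a description, without a test. For CSNK1E these were COQ6, an enzyme of ubiquinone synthesis (r = 0.99), the mitochondrial poly(A) polymerase MTPAP (r = 0.98) and the kinase GAK (r = 0.98), whose levels varied far less, with COQ6 between 5.06 and 5.81. For PER3 they were the centrosome gene CEP152, PDCD6 and TYW3 (each r = 0.99), for NFIL3 the mediator subunit MED17, the splicing regulator HNRNPH1 (both r = 0.98) and GPAT4 (r = 0.97), and for CRY2 MTCL1 (r = 0.95), SENP5 and SIX5 (both r = 0.94). No clock gene was among them.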
